A study of Anolis sagrei with 15 samples.

Results

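The subunits of the mitochondrial respiratory chain were followed in RNA from the posterior globe of brown anole (*Anolis sagrei*) embryos, across its central, temporal and nasal regions. Members were taken by gene symbol. A gene model was a member where its upper-case symbol began with NDUFA, NDUFB, NDUFC, NDUFS or NDUFV, UQCR, UQCC, COX4 to COX8, or ATP5, or was SDHA, SDHB, SDHC, SDHD, CYC1 or CYCS. This rule took 89 of 20235 gene models, which carry 86 symbols, and used no measured value. They fell into 35 gene models of complex I, 4 of complex II, 8 of complex III and cytochrome c, 14 of complex IV, 17 of ATP synthase and 11 of assembly factors, the proteins that help to build complexes I and III without staying in them. Symbols such as NDUFAF1 and UQCC1 thus matched the rule although these proteins are not subunits of the finished chain, and they are described apart. NDUFA4 and NDUFA4L2 were counted with complex IV, where NDUFA4 is placed in mammals.

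The 15 libraries came from embryos at Sanger stage 16.5, with 5 replicates from each of the central, temporal and nasal regions. No group carried a treatment or an engineered allele, and no region serves as a control for the others. The embryos were of mixed sex and descended from wild-caught anoles, of south Florida by the deposited design and of Orlando by the study's methods, and the study's methods state that tissue of several embryos was pooled. The labels do not say whether equal replicate numbers mark the same embryos, so p-values measure the spread between these samples. The dissected pieces are bulk tissue, in which fewer cells of a type and less RNA per cell cannot be told apart.

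The respiratory chain moves electrons from NADH and succinate to oxygen and uses the energy to pump protons across the inner mitochondrial membrane. Complex I accepts electrons from NADH and complex II from succinate. Both pass them through ubiquinone to complex III, and cytochrome c carries them on to complex IV, which reduces oxygen. ATP synthase lets the protons flow back through a rotating ring and makes ATP in its catalytic head. The vertebrate retina is known for a high demand for ATP, much of it in the mitochondria-packed inner segments of photoreceptors and at synapses. Some subunits of complexes I, III and IV and of ATP synthase are encoded by the mitochondrial genome in vertebrates. None of 27 spellings of those symbols was in the gene table, and they were not analysed here. The study's methods state that its genome assembly lacked the mitochondrial genome, which was assembled separately.

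Counted reads per library were between 15712525 and 27035312 in central, between 15177438 and 24688374 in temporal and between 18365334 and 25166494 in nasal samples. Levels are given as CPM, the read count scaled to a common library size with TMM factors, a unit that is not corrected for gene length, so that levels are compared between libraries and not between genes. Libraries with equal replicate numbers deviated together from their region means, as all 15 such pairs had a correlation over 0.1, and a fit with the replicate number as a block is given where it alters a call. The library of central replicate 4 stood apart, with reads in 14994 gene models against 17491 to 18617 in the other libraries. Summed photoreceptor markers were 12695 to 14700 CPM in central, 9501 to 13383 CPM in temporal and 8652 to 11034 CPM in nasal libraries. Of 19 such gene models 11 were higher and 4 lower in central against nasal samples, where 10.4% and 7.94% of all gene models were. Against temporal samples 5 were higher and 3 lower, where 3.53% and 3.24% of all gene models were (all at an adjusted p under 0.05). Summed markers of progenitors and cell division were 274 to 353 CPM in central, 341 to 394 CPM in temporal and 383 to 450 CPM in nasal libraries. Beside the same shares, 1 of 12 such gene models was higher and 4 were lower in central against nasal samples. Against temporal samples 0 were higher and 1 was lower. Summed retinal ganglion cell markers were 1447 to 2090 CPM in central, 1938 to 2773 CPM in temporal and 1412 to 1786 CPM in nasal libraries. Of 14 such gene models 4 were higher and 2 lower in central against nasal, and 1 higher and 3 lower in central against temporal samples. The part of these differences in composition in the results below was not tested.

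All members together were lower in central libraries. Their summed level was 6303, 7493, 6018, 8340 and 7922 CPM in central replicates 1 to 5, against 8318, 8599, 7796, 9401 and 8467 CPM in temporal replicates and 8070, 8696, 7374, 8799 and 8929 CPM in nasal replicates 1 to 5. Each central library was below both the temporal and the nasal library of the same number, although the ranges overlapped. The mean was 7215 ± 1013 CPM in central, 8516 ± 581 CPM in temporal and 8373 ± 649 CPM in nasal samples (SD, n = 5 each), so that the central mean was lower by 15.3% than the temporal and by 13.8% than the nasal mean. Central replicates 1 and 3 were the lowest of all libraries, and central replicate 4, the library that stood apart, was the highest of its region.

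The complexes contributed unequally to this difference. For ATP synthase the summed level was 2728 ± 504 CPM in central, 3457 ± 397 CPM in temporal and 3413 ± 391 CPM in nasal samples, and central was the lower of each pair with equal number. For complex III it was 678 ± 80.6 CPM in central, 805 ± 62.6 CPM in temporal and 784 ± 51.2 CPM in nasal samples, again with central the lower in 5 of 5 pairs against both. The complex I sum was 2278 ± 298 CPM in central, 2526 ± 142 CPM in temporal and 2534 ± 138 CPM in nasal samples. The spread within the central region was wide, with replicates 1 and 3 the lowest for each of these 3 sums. The complex IV sum, at 934 ± 178 CPM in central, 1048 ± 99.5 CPM in temporal and 1006 ± 73.3 CPM in nasal samples, was lower in central in 4 of 5 pairs against temporal and in 3 of 5 against nasal.

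For complex II the summed level set the temporal libraries apart from both others. Its summed level was 370, 393, 357, 380 and 401 CPM in central replicates 1 to 5, against 446, 433, 448, 485 and 463 CPM in temporal replicates and 393, 405, 392, 419 and 409 CPM in nasal replicates. All temporal libraries lay above all central and all nasal libraries, and central and nasal libraries overlapped, with central the lower in 5 of 5 pairs of equal number. SDHA, described below, held the largest part of this sum in each library. The log2 fold changes of the 4 members in temporal against nasal samples ran from -0.18 to 0.22, with 1 negative. Assembly factors summed to 218 ± 29.6 CPM in central, 225 ± 8.16 CPM in temporal and 233 ± 11.4 CPM in nasal samples, means that lie within 1 SD of the central samples.

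**Figure D1:**
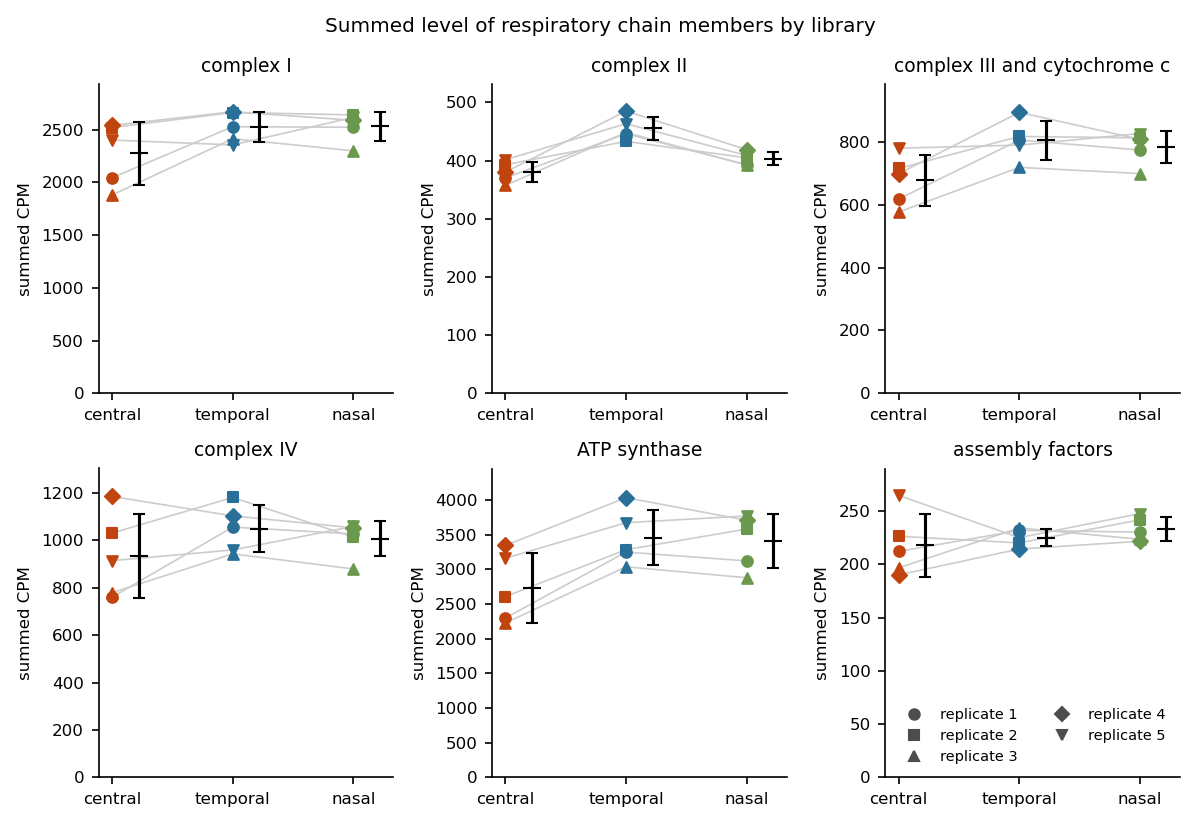
Summed CPM (vertical axes, from 0) of the members of each complex in the central, temporal and nasal libraries, where marker shapes give the replicate number, grey lines join equal numbers, and black bars give the mean and SD of 5 libraries. Central libraries lie below those of equal number for ATP synthase and complex III, and temporal libraries lie above all others for complex II.

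Of the 89 members, 85 passed the filter on low counts and were tested with all 15910 gene models that passed it. In central against nasal samples, the quasi-likelihood test of edgeR, adjusted after Benjamini and Hochberg, called 1 member higher and 8 lower at an adjusted p under 0.05, where 10.4% of all gene models were called higher and 7.94% lower (18.4% in either direction). In this fit, without the replicate block, the count of lower members was thus near the background. The median log2 fold change of the members was -0.19, against -0.03 for all gene models, and 68 of 85 members were negative. In central against temporal samples 1 member was higher and 9 were lower, where 3.53% of all gene models were called higher and 3.24% lower (6.78% in either direction). The median log2 fold change was -0.16, against -0.01 for all gene models, and 71 of 85 members were negative. Both comparisons share the central libraries.

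With the replicate block, the members called lower in central were far more numerous. Against nasal samples 2 were called higher and 35 lower, where the block called 14.3% of all gene models higher and 13.6% lower. Against temporal samples 1 was higher and 23 were lower, where it called 6.34% higher and 6.37% lower. All members called without the block were also called with it. Without central replicate 4, the blocked fit gave 1 higher and 37 lower against nasal, and 1 higher and 25 lower against temporal samples. The shares over all gene models in that fit are not given here. Counted by pairs of equal replicate number, 36 of the 85 members were lower in central than in nasal samples in 5 of 5 pairs, against 16.7% of all gene models. Likewise, 31 were lower in central than in temporal samples in 5 of 5 pairs, against 13.6% of all gene models.

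**Figure D2:**
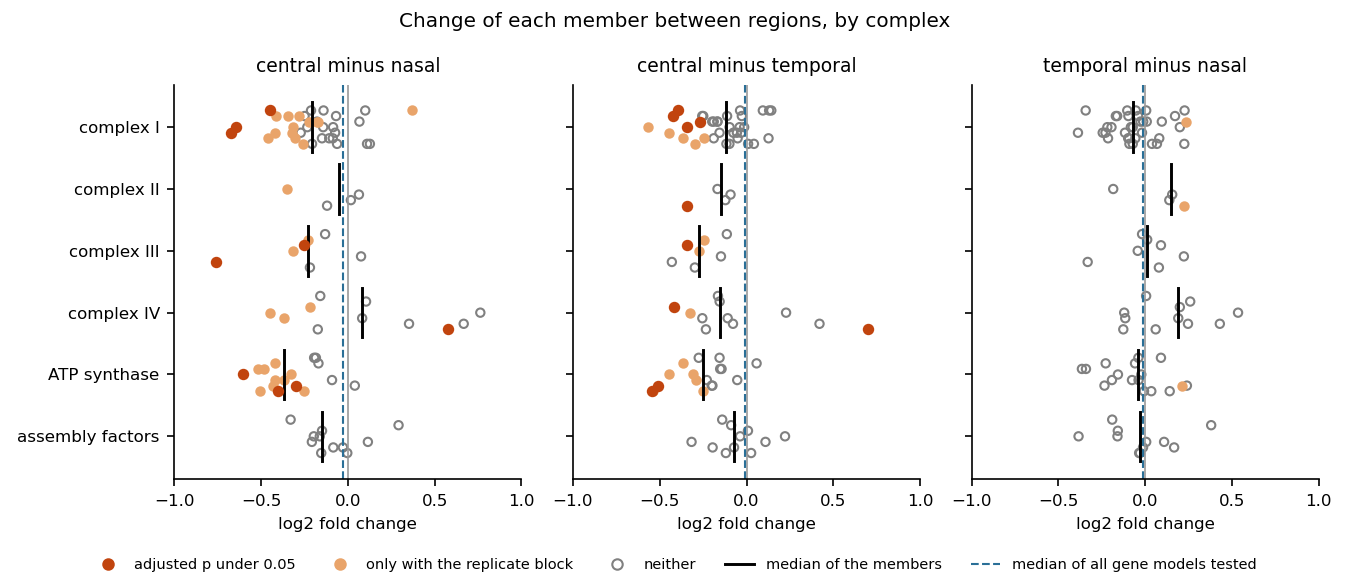
Log2 fold change (horizontal axes) of each tested member by complex, for central minus nasal, central minus temporal and temporal minus nasal. Filled points passed an adjusted p of 0.05 without the block (dark) or only with it (light), black bars are medians of the members and the dashed line is the median of all gene models tested, and most points of ATP synthase and complexes I and III lie left of 0 in both central comparisons.

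In ATP synthase the catalytic head fell in central samples against both other regions. ATP5F1A and ATP5F1B encode the alternating subunits of the catalytic head, where ATP is made. ATP5F1A was at 365, 350, 398, 455 and 478 CPM in central replicates 1 to 5, against 545, 533, 572, 664 and 670 CPM in temporal replicates and 536, 517, 522, 567 and 563 CPM in nasal replicates. Every central library was below every temporal and every nasal one. Its log2 fold change in central samples was -0.54 ± 0.10 against temporal (SE, adjusted p = 0.00128) and -0.40 ± 0.10 against nasal samples (adjusted p = 0.00578), changes of -31.4% and -24.4% on the linear scale. Standard errors of log2 fold changes, here and below, are the fold change divided by the square root of the F statistic of the test.

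ATP5F1B was at 455, 462, 482, 592 and 542 CPM in central replicates, against 711, 700, 670, 813 and 717 CPM in temporal and 595, 630, 545, 699 and 651 CPM in nasal replicates. Central and temporal libraries did not overlap, while central replicate 4 lay inside the nasal range. The log2 fold change was -0.51 ± 0.09 in central against temporal (adjusted p = 0.00134) and -0.30 ± 0.09 in central against nasal samples (adjusted p = 0.0258). The call against nasal samples was lost without any 1 of central replicates 1, 2 or 3, temporal replicate 5, or nasal replicates 2, 4 or 5.

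ATP5F1D, a subunit of the central stalk that couples the turning ring to the head, was at 45.7, 52.2, 47.4, 77.0 and 54.8 CPM in central replicates. In temporal replicates it was at 58.3, 72.5, 78.6, 98.1 and 70.2 CPM, and in nasal replicates at 79.8, 91.9, 73.7, 93.8 and 82.1 CPM. Central replicate 4 alone reached the nasal range. ATP5F1D fell by 0.61 on the log2 scale in central against nasal samples (SE 0.15, adjusted p = 0.00688). Against temporal samples its log2 fold change was -0.45 ± 0.15 (adjusted p = 0.0806), with an adjusted p of 0.00351 under the block and of 0.00617 without central replicate 4. ATP5F1C, the shaft of the central stalk, had means of 336 ± 67.9 CPM in central, 412 ± 88.6 CPM in temporal and 434 ± 74.1 CPM in nasal samples. It was lower in central in 5 of 5 pairs against each region. With all libraries it passed only under the block, with an adjusted p of 0.0114 against temporal and of 0.000777 against nasal samples. It also passed against nasal samples without the block when central replicate 5 was left out.

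The 3 genes for the proton-turned ring differed in spread. ATP5MC3 was at 64.1, 84.4, 58.8, 114 and 112 CPM in central replicates, against 105, 112, 94.8, 170 and 149 CPM in temporal and 108, 134, 91.0, 141 and 142 CPM in nasal replicates. Replicate 3 was the lowest library in each region, and central was the lower of each pair of equal number. Its log2 fold change was -0.54 ± 0.20 in central against temporal samples (adjusted p = 0.134, and 0.000255 with the block) and -0.50 ± 0.20 in central against nasal samples (adjusted p = 0.0919, and 0.000126 with the block). ATP5MC3 passed against nasal samples without the block when central replicate 4 (adjusted p = 0.0363) or central replicate 5 was left out. ATP5MC1 passed only with the block, with adjusted p-values of 0.0284 against temporal and 0.0067 against nasal samples. ATP5MC2 was called in neither fit.

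ATP5IF1, the inhibitor that binds the catalytic head when the enzyme would run backwards and split ATP, had 58.1, 101, 57.0, 111 and 84.7 CPM in central replicates, 71.7, 106, 96.7, 102 and 78.8 CPM in temporal replicates and 119, 124, 106, 119 and 109 CPM in nasal replicates. The nasal libraries were the most alike. In central against nasal samples its log2 fold change was -0.48 ± 0.17, just outside the threshold (adjusted p = 0.0503, and 0.00516 with the block). With all libraries, none of the 4 subunits of the peripheral stalk, which holds the head still, passed without the block in either central comparison. Nor did any of the 5 small membrane subunits. ATP5ME passed against nasal samples, without the block, when central replicate 4 was left out (adjusted p = 0.0485). Under the block ATP5PD and ATP5MF were lower in central in both comparisons, and ATP5PF, ATP5ME and ATP5MG were lower in central against nasal samples alone, a difference between the comparisons that was not tested. Altogether 16 of the 17 members of ATP synthase had a negative log2 fold change in each central comparison, with a median of -0.25 against temporal and of -0.37 against nasal samples.

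In complex III, UQCRC2, a core protein of the matrix side, was lower in central samples with little spread among replicates. It was at 160, 171, 160, 152 and 163 CPM in central replicates, against 213, 213, 203, 210 and 185 CPM in temporal and 203, 200, 178, 186 and 195 CPM in nasal replicates. Central libraries did not overlap with either. It fell by 0.34 on the log2 scale in central against temporal (SE 0.07, adjusted p = 0.00427) and by 0.25 in central against nasal samples (SE 0.07, adjusted p = 0.0157). Its partner UQCRC1 had means of 154 ± 42.9 CPM in central, 186 ± 39.9 CPM in temporal and 192 ± 28.2 CPM in nasal samples and passed only under the block (adjusted p = 0.0239 against temporal and 0.0037 against nasal).

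The electron-carrying subunits of complex III did not pass without the block. CYC1, which holds the heme that reduces cytochrome c, was at 47.5, 57.8, 45.1, 55.5 and 58.1 CPM in central, against 59.5, 78.6, 62.9, 65.2 and 58.3 CPM in temporal and 74.3, 56.5, 51.9, 66.9 and 57.9 CPM in nasal replicates. Central and temporal libraries did not overlap, by a margin of 58.1 against 58.3 CPM. The log2 fold change of CYC1 was -0.30 ± 0.12 in central against temporal samples, and it passed neither without nor with the block (adjusted p = 0.172, and 0.0833 with the block). UQCRFS1, the Rieske iron-sulfur protein, had log2 fold changes of -0.24 ± 0.13 in central against temporal and -0.23 ± 0.13 in central against nasal samples, with blocked adjusted p-values of 0.0494 and 0.027. Without central replicate 4 the blocked adjusted p was 0.0556 against temporal and 0.0283 against nasal samples.

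UQCR10, a small subunit of complex III, was at 6.74, 13.1, 7.44, 4.75 and 11.8 CPM in central replicates, against 9.29 to 15.6 CPM (median 12.2) in temporal and 12.0 to 19.5 CPM (median 13.7) in nasal libraries. Central replicate 2 lay inside both ranges. Its log2 fold change of -0.76 ± 0.24 in central against nasal samples passed (adjusted p = 0.0332). The lowest value was that of central replicate 4, and without this library the adjusted p was 0.0518. The call was also lost without central replicates 1 or 3 or nasal replicates 1, 2 or 3. UQCRB and UQCRH, the other small subunits measured, were not called in either fit.

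Complex I has a hydrophilic arm, where NADH is oxidised and electrons run along iron-sulfur clusters, and a membrane arm that pumps protons. Its nuclear core subunits all lie in the hydrophilic arm. Of the 7 core subunits 4 were lower in central against temporal samples and 2 in central against nasal samples, while of the 28 accessory subunits none was called against temporal and 1 was lower against nasal samples. Of all gene models 3.24% were lower in central against temporal and 7.94% against nasal samples, and the difference between core and accessory subunits was not tested. NDUFS3, of the arm that carries electrons towards ubiquinone, was at 60.2, 63.8, 49.1, 51.2 and 73.0 CPM in central, 79.8, 77.2, 72.9, 88.3 and 73.5 CPM in temporal and 77.0, 79.8, 78.0, 83.4 and 88.3 CPM in nasal replicates. Central and nasal libraries did not overlap, and only central replicate 5 reached the temporal range. Its log2 fold change was -0.40 ± 0.10 in central against temporal (adjusted p = 0.0265) and -0.45 ± 0.10 in central against nasal samples (adjusted p = 0.00497). The call against temporal samples was lost without central replicate 1, 3 or 4 or temporal replicate 1, 4 or 5.

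NDUFS8, which carries a pair of iron-sulfur clusters near the end of the electron path, was at 80.9, 75.1, 80.6, 76.7 and 84.0 CPM in central, against 111, 101, 93.0, 100 and 98.7 CPM in temporal and 93.3, 87.8, 83.0, 81.5 and 93.0 CPM in nasal replicates. Central and temporal libraries did not overlap. NDUFS8 fell by 0.34 on the log2 scale in central against temporal samples (SE 0.08, adjusted p = 0.00903), while its log2 fold change in central against nasal samples was -0.14 ± 0.08 (adjusted p = 0.229).

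NDUFS1, an iron-sulfur subunit of that path, passed narrowly. It was at 165, 203, 166, 186 and 193 CPM in central, 221, 226, 205, 232 and 217 CPM in temporal and 192, 218, 191, 224 and 206 CPM in nasal replicates. Central and temporal libraries did not overlap. The log2 fold change in central against temporal samples was -0.27 ± 0.08 (adjusted p = 0.0487, and 0.00601 with the block), and the call was lost on leaving out any single library except nasal replicate 1.

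NDUFS7, with the iron-sulfur cluster that hands electrons to ubiquinone, had the largest fall of the core subunits against nasal samples. It was at 21.2, 34.0, 22.1, 45.3 and 31.2 CPM in central, 29.7, 47.7, 39.5, 53.6 and 38.8 CPM in temporal and 51.5, 53.1, 42.8, 53.7 and 44.6 CPM in nasal replicates. Central replicate 4 alone reached the nasal range. NDUFS7 had a log2 fold change of -0.67 ± 0.19 in central against nasal samples (adjusted p = 0.0176). Against temporal samples it was -0.45 ± 0.19 (adjusted p = 0.212, and 0.0236 with the block), and -0.62 without central replicate 4 (adjusted p = 0.0304). NDUFV1, where NADH is bound and oxidised, and its neighbour NDUFV2 passed in neither central comparison, with log2 fold changes in central against nasal samples of 0.07 ± 0.10 for NDUFV1 and -0.07 ± 0.16 for NDUFV2.

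**Figure D3:**
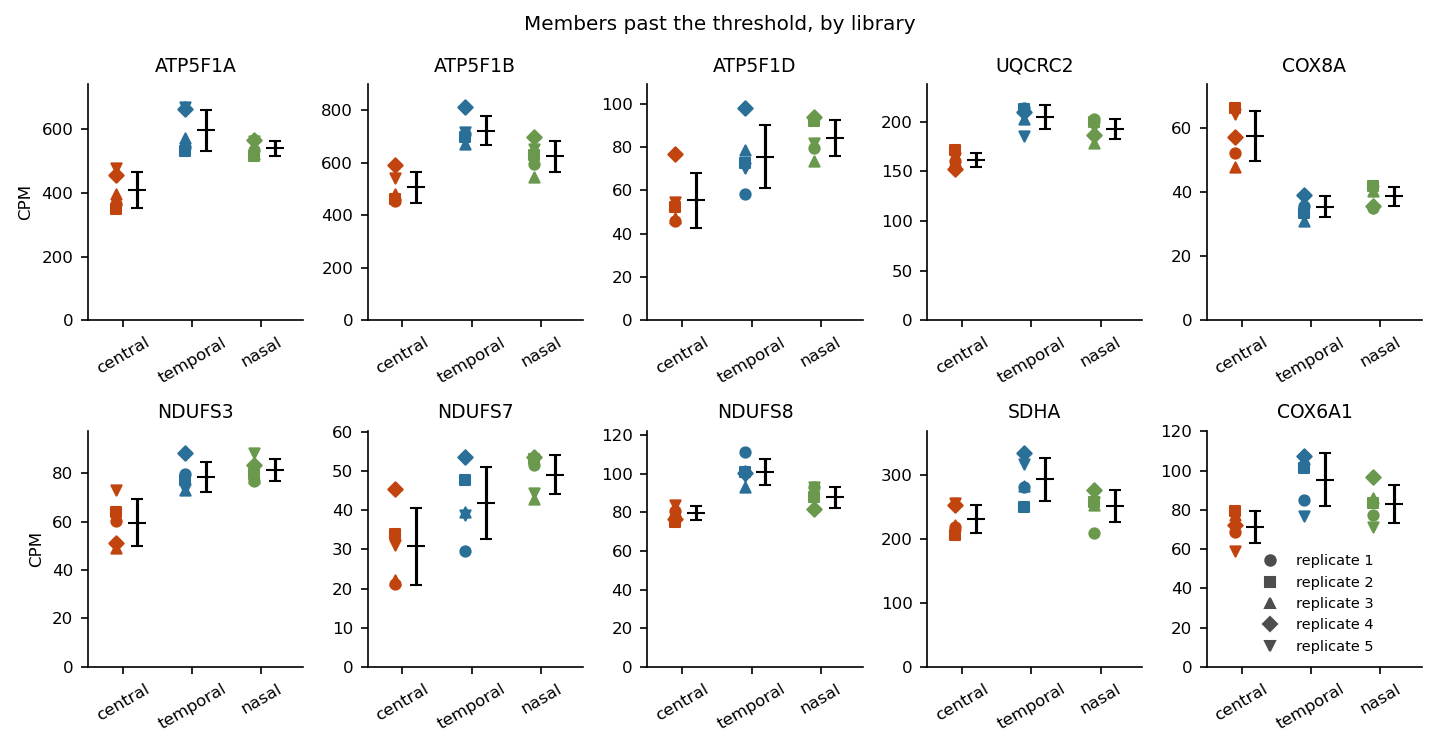
CPM (vertical axes, from 0) of 10 members past the threshold in at least 1 comparison, in central, temporal and nasal libraries, with marker shapes for the replicate number and black bars for the mean and SD of 5 libraries. ATP5F1A and UQCRC2 lie lower in central than in all other libraries, and COX8A, at 48.0 to 66.4 CPM in central libraries, lies above all others.

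Among the accessory subunits, NDUFB4 of the membrane arm was at 14.3, 16.7, 13.5, 9.49 and 25.3 CPM in central, 22.3, 20.5, 21.3, 27.3 and 26.2 CPM in temporal and 19.5, 24.3, 23.2, 26.6 and 30.9 CPM in nasal replicates. Central replicate 5 overlapped with both other regions. The log2 fold change in central against nasal samples was -0.65 ± 0.20 (adjusted p = 0.0305), a call lost without central replicate 1, 2 or 3 or nasal replicate 2, 4 or 5. NDUFAB1, the mitochondrial acyl carrier protein that is also a part of complex I, had means of 55.9 CPM in central, 66.5 CPM in temporal and 71.1 CPM in nasal samples. With all libraries it passed against nasal only under the block (adjusted p = 0.0608, and 0.0138 with the block). Without central replicate 4 it also passed against nasal without the block (adjusted p = 0.0365). With the block 4 of the 28 accessory subunits were lower in central against temporal samples, where it called 6.37% of all gene models lower. Against nasal samples 12 were lower and 1 was higher, where it called 13.6% lower and 14.3% higher. The higher one was NDUFB1, with a blocked adjusted p of 0.0465, and of 0.124 without central replicate 4.

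In complex II, SDHA, the flavoprotein that oxidises succinate in both the chain and the citric acid cycle, was at 218, 206, 222, 252 and 255 CPM in central, 281, 250, 282, 334 and 317 CPM in temporal and 209, 258, 253, 276 and 257 CPM in nasal replicates. Temporal was the higher of each pair with central, and temporal replicate 2 lay inside the central range. SDHA had a log2 fold change of -0.34 ± 0.10 in central against temporal (adjusted p = 0.0381) and -0.12 ± 0.10 in central against nasal samples (adjusted p = 0.454). The call was lost without central replicate 1, 2 or 3, temporal replicate 1, 3, 4 or 5, or nasal replicate 2 or 3. The iron-sulfur subunit SDHB had means of 54.2 ± 10.3 CPM in central, 59.1 ± 9.69 CPM in temporal and 53.6 ± 10.2 CPM in nasal samples, and the membrane anchor SDHC had 71.1 ± 11.7, 75.8 ± 12.0 and 68.1 ± 9.86 CPM in the same order of regions. Neither was called in any comparison. The other anchor, SDHD, was called only against nasal samples and only under the block (log2 fold change without it -0.35 ± 0.20, adjusted p = 0.27, and 0.0319 with the block), a call lost without central replicate 4 (blocked adjusted p = 0.0509).

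Complex IV held the one member that was higher in central samples in both comparisons. COX8A, a small membrane subunit of the oxidase, was at 52.3, 66.4, 48.0, 57.3 and 64.4 CPM in central replicates, against 35.7, 33.6, 30.9, 39.2 and 38.0 CPM in temporal and 35.2, 42.1, 40.3, 35.8 and 40.3 CPM in nasal replicates. Every central library was above every other library. COX8A had a log2 fold change of 0.70 ± 0.11 in central against temporal (adjusted p = 0.000395) and 0.58 ± 0.11 in central against nasal samples (adjusted p = 0.000866), a level 1.63 times the temporal and 1.49 times the nasal one. The calls held on leaving out each library in turn. A further gene model with the symbol COX8A had 91 reads in all libraries together and did not pass the filter, and reads that both models could hold cannot be assigned between them from the table.

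No other complex IV member was called higher in central samples, with or without the block. Of the 11 tested, COX8A included, 6 had a positive log2 fold change against nasal and 3 against temporal samples. COX6A1, the broadly expressed form of its subunit in mammals, was at 68.5, 79.2, 77.4, 72.0 and 59.0 CPM in central, 85.2, 101, 106, 107 and 77.0 CPM in temporal and 77.2, 83.7, 86.1, 96.8 and 71.2 CPM in nasal replicates. Replicate 5 was the lowest of each region, and central was lower in 5 of 5 pairs against both. COX6A1 fell by 0.42 on the log2 scale in central against temporal samples (SE 0.11, adjusted p = 0.0318), a call lost without central replicate 1 or 5 or temporal replicate 2, 3 or 4. Against nasal samples its log2 fold change was -0.22 ± 0.11 (adjusted p = 0.211, and 0.0246 with the block, or 0.0655 with the block but without central replicate 4). COX5B, which binds zinc on the matrix side, had log2 fold changes of -0.33 ± 0.18 against temporal and -0.45 ± 0.18 against nasal samples, with blocked adjusted p-values of 0.0145 and 0.000536. COX5A passed under the block against nasal samples (adjusted p = 0.0133), and against temporal samples only when central replicate 4 was left out of the blocked fit (adjusted p = 0.0316).

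The paired isoforms COX4I1 and COX4I2 differed in their spread. COX4I1, the general form in mammals, was at 253 ± 71.0 CPM in central, 298 ± 44.9 CPM in temporal and 285 ± 40.0 CPM in nasal samples and was called in neither fit with all libraries. Without central replicate 4 it was lower in central under the block, with adjusted p-values of 0.00318 against temporal and 0.00567 against nasal samples. COX4I2, in mammals a form of lung and of low oxygen, was at 5.40, 9.43, 3.83, 43.9 and 10.7 CPM in central, 10.2, 10.9, 8.94, 14.5 and 9.80 CPM in temporal and 9.50, 10.4, 7.74, 9.59 and 8.66 CPM in nasal replicates. Central replicate 4 alone set its central mean. The log2 fold change in central against nasal samples was 0.67 ± 0.46 with this library (adjusted p = 0.362) and -0.31 without it (adjusted p = 0.413), and in central against temporal samples 0.42 ± 0.46 and -0.56. Summed pigment epithelium markers were 3065 CPM in central replicate 4 and 1762 to 2178 CPM in the other central libraries, and summed cartilage and sclera markers 652 CPM against 186 to 360 CPM, and their part in the COX4I2 level was not tested. The median log2 fold change of complex IV against nasal samples likewise was 0.08 with and -0.22 without this library.

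NDUFA4 was carried by 2 gene models. One had means of 165 ± 41.1 CPM in central, 178 ± 32.1 CPM in temporal and 156 ± 11.0 CPM in nasal samples, and the other 19.4 ± 6.20, 20.6 ± 6.73 and 15.3 ± 4.43 CPM in the same order. Neither was called in any comparison. NDUFA4L2, a relative that rises in low oxygen in mammals, was near the lower limit of the filter, at 0.555 to 3.14 CPM in central, 0.951 to 1.81 CPM in temporal and 0.591 to 1.29 CPM in nasal libraries, with the highest value again in central replicate 4. COX7A2L, which helps to join complexes III and IV into supercomplexes in mammals, had means of 28.4 ± 6.70 CPM in central, 31.7 ± 9.29 CPM in temporal and 26.5 ± 8.59 CPM in nasal samples and was not called. COX7B, another membrane subunit, was not called either.

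None of the 11 assembly factors passed in any comparison, with or without the block. UQCC1, an assembly factor of complex III, had the lowest adjusted p of them in central against temporal samples (log2 fold change -0.32 ± 0.11, adjusted p = 0.0996, and 0.0642 with the block). NDUFAF1, which takes part in building the membrane arm of complex I, had means of 49.0 CPM in central, 48.1 CPM in temporal and 49.1 CPM in nasal samples. The pair of gene models named NDUFAF5 had means of 20.7 and 3.32 CPM in central samples and were not called. The median log2 fold change of the assembly factors was -0.07 in central against temporal and -0.15 in central against nasal samples.

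Between the temporal and nasal regions edgeR's test called 0 of 85 members, where 4.40% of all gene models were called higher and 2.19% lower in temporal (6.59% in either direction). At an unadjusted p under 0.05 there were 5 members higher and 0 lower, where 1603 of all 15910 gene models were higher and 1235 lower. DESeq2 also called 0. Limma-voom with sample weights called 3, and its share over all gene models is not given here. The block called 3 higher, where it called 7.96% of all gene models higher and 5.96% lower. The 3 called by the block were ATP5F1B, NDUFV1 and SDHA, with blocked adjusted p-values of 0.0229, 0.0301 and 0.0414. In this comparison the lowest adjusted p-values without the block were those of NDUFS8 (log2 fold change 0.20 ± 0.08, adjusted p = 0.148), the accessory subunit NDUFB8 (0.23 ± 0.10, adjusted p = 0.205) and ATP5F1B (0.21 ± 0.09, adjusted p = 0.211). No member separated the temporal from the nasal libraries completely, where 5.70% of all gene models did so with temporal higher and 3.43% with temporal lower. The median log2 fold change was -0.03, against -0.01 for all gene models. The comparison shares its libraries with the other two.

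Some members separated the central libraries from another region without overlap. Against temporal libraries 7 members (among them ATP5F1A, ATP5F1B, CYC1, NDUFS1, NDUFS8 and UQCRC2) were entirely lower in central and 1 was entirely higher, where 3.76% and 3.53% of all gene models were. Against nasal libraries 3 members, ATP5F1A, NDUFS3 and UQCRC2, were entirely lower and 1, COX8A, was entirely higher, where 5.97% and 7.35% of all gene models were.

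Genes that feed the chain were set beside it. Of 18 gene models of the citric acid cycle and pyruvate dehydrogenase, 5 were lower and 0 higher in central against temporal samples, and 4 were lower and 0 higher in central against nasal samples, where 3.24% and 7.94% of all gene models were lower. In temporal against nasal samples 1 was higher and 0 were lower. All 18 were negative against temporal samples, with a median log2 fold change of -0.24. Their summed level was 1969 to 2115 CPM in central, 2423 to 2577 CPM in temporal and 2177 to 2456 CPM in nasal libraries, so that central libraries overlapped with neither of the others. CS, the citrate synthase that opens the cycle, was at 362 ± 38.9 CPM in central, 486 ± 22.7 CPM in temporal and 445 ± 34.6 CPM in nasal samples. It fell by 0.42 on the log2 scale in central against temporal (SE 0.08, adjusted p = 0.00298) and by 0.30 in central against nasal samples (SE 0.08, adjusted p = 0.0167). MDH2, IDH2 and IDH3B, dehydrogenases of the cycle, were also lower in central in both comparisons, with log2 fold changes between -0.53 and -0.38. These calls held without central replicate 4. With the block, 11 of the 18 were lower in central against temporal samples, where the block called 6.37% of all gene models lower. Against nasal samples it gave 1 higher and 4 lower, where it called 14.3% higher and 13.6% lower. In temporal against nasal samples it gave 4 higher and 0 lower, where it called 7.96% and 5.96%.

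Of 22 gene models of regulators of mitochondrial biogenesis, 3 were lower and 1 higher in central against temporal, 3 lower and 1 higher in central against nasal, and 3 higher and 0 lower in temporal against nasal samples. Of all gene models 3.53% were called higher and 3.24% lower in central against temporal samples (6.78% in either direction). In central against nasal samples 10.4% were higher and 7.94% lower (18.4% in either direction). In temporal against nasal samples 4.40% were higher and 2.19% lower (6.59% in either direction). Without the block, the count in either direction in central against nasal samples was thus at the background, while 13.6% of the list were lower against 7.94%. With the block 1 was higher and 8 were lower there, where it called 14.3% of all gene models higher and 13.6% lower. Against temporal samples it gave 1 higher and 4 lower, where it called 6.34% and 6.37%. In temporal against nasal samples it gave 3 higher and 1 lower, where it called 7.96% and 5.96%. PPARGC1A, a coactivator known to raise the expression of respiratory genes in mammals, was at 46.6 ± 5.67 CPM in central, 89.6 ± 5.65 CPM in temporal and 54.5 ± 3.08 CPM in nasal samples. Its log2 fold change was -0.95 ± 0.09 in central against temporal (adjusted p = 2.87e-06) and 0.72 ± 0.09 in temporal against nasal samples (adjusted p = 7.15e-05). The related PPARGC1B was at 33.8 ± 4.06 CPM in central, 70.6 ± 7.94 CPM in temporal and 42.1 ± 7.91 CPM in nasal samples, with log2 fold changes of -1.07 ± 0.13 in central against temporal (adjusted p = 4.67e-05) and 0.75 ± 0.13 in temporal against nasal samples (adjusted p = 0.00177). Temporal samples were thus the high ones for both coactivators. Of the 85 members 0 were called between temporal and nasal samples without the block, and 3 were higher in temporal with it. A link between the coactivators and the members was not tested. ESRRA, a nuclear receptor that works with these coactivators in mammals, was higher in temporal than in nasal samples by 0.49 ± 0.14 on the log2 scale (adjusted p = 0.0483) for 1 of its 2 gene models. PPRC1, the third coactivator of the family, was lower in central against both regions, with log2 fold changes of -0.55 ± 0.15 against temporal (adjusted p = 0.0277) and -0.57 ± 0.15 against nasal samples (adjusted p = 0.0104). NRF1, a transcription factor of nuclear respiratory genes, was lower in central against nasal samples (log2 fold change -0.40 ± 0.13, adjusted p = 0.0399, and 0.0736 without central replicate 4). SSBP1, which binds single-stranded mitochondrial DNA, was higher in central by 0.70 ± 0.17 against temporal (adjusted p = 0.015) and by 0.53 ± 0.17 against nasal samples (adjusted p = 0.0348, and 0.0691 without central replicate 4).

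The mitochondrial ribosome, which translates the mitochondrially encoded subunits, had 79 gene models tested. Of these 0 were called in central against temporal samples by edgeR (2 higher and 2 lower at an unadjusted p under 0.05, and 1 higher with the block), and 1 was higher and 4 were lower in central against nasal samples (1 and 17 with the block). In temporal against nasal samples 0 were higher and 1 was lower (0 and 3 with the block). Of all gene models 3.53% were called higher and 3.24% lower in central against temporal, and 10.4% and 7.94% in central against nasal samples. At an unadjusted p under 0.05, 1424 of all 15910 gene models were higher and 1335 lower in central against temporal samples. The block called 6.34% higher and 6.37% lower against temporal, and 14.3% and 13.6% against nasal samples. In temporal against nasal samples 4.40% were higher and 2.19% lower (7.96% and 5.96% with the block), and all these shares apply to the next lists as well. The median log2 fold change was -0.03 in central against temporal, -0.18 in central against nasal and -0.17 in temporal against nasal samples. In temporal against nasal samples 70 of the 79 were negative, so that the nasal samples were the high ones for this list. Of 40 gene models of further assembly factors, 0 were called in central against temporal samples by edgeR (0 higher and 4 lower at an unadjusted p under 0.05, and 1 lower with the block). In central against nasal samples 2 were higher and 0 lower (4 and 1 with the block). In temporal against nasal samples 1 was higher and 0 lower (2 and 0 with the block). Of 15 gene models of carriers, pores and creatine kinases, 0 were higher and 2 lower in central against temporal samples (0 and 6 with the block). In central against nasal samples 2 were higher and 3 lower (3 and 5 with the block). In temporal against nasal samples 2 were higher and 0 lower (4 and 0 with the block). CKMT1A, the mitochondrial creatine kinase, was at 281 ± 43.1 CPM in central, 411 ± 62.6 CPM in temporal and 386 ± 73.3 CPM in nasal samples and was lower in central in both comparisons (adjusted p = 0.0175 against temporal and 0.0238 against nasal). VDAC1, the main pore of the outer membrane, was higher in central than in nasal samples by 0.23 ± 0.07 on the log2 scale (adjusted p = 0.0207). It was not higher in central than in temporal samples. There all 15 gene models of this list had a negative log2 fold change, with a median of -0.27.

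**Figure D4:**
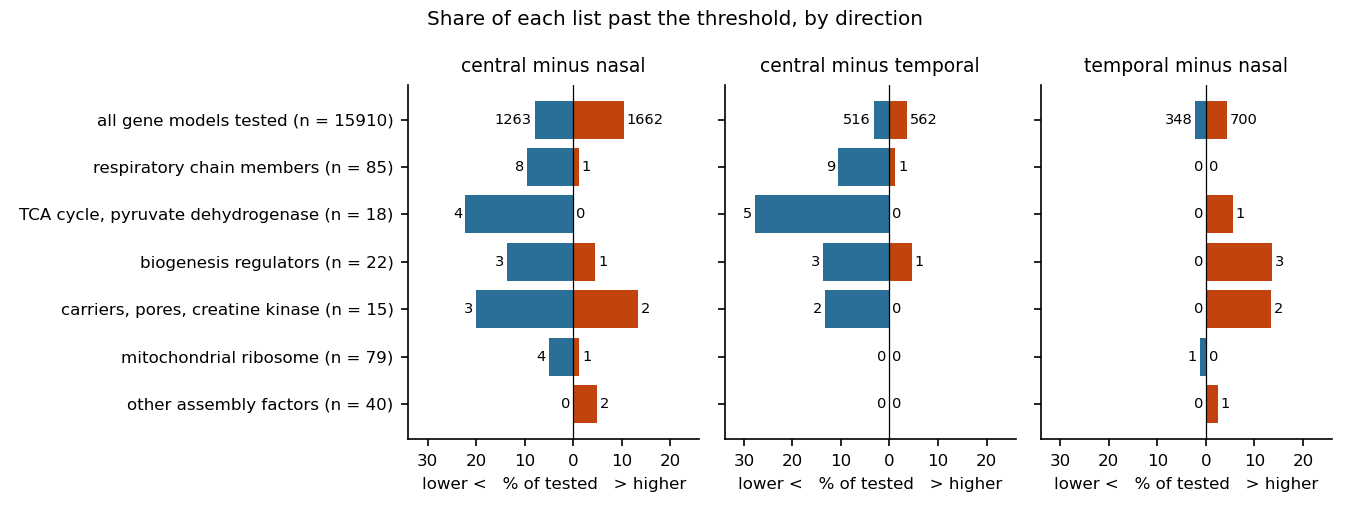
Percent of the tested gene models of each list called lower (left of 0) and higher (right of 0) at an adjusted p under 0.05, with the number called printed at each bar, for central minus nasal, central minus temporal and temporal minus nasal. Respiratory chain members were called lower 8 times against nasal (9.41%) and 9 times against temporal samples (10.6%), where 7.94% and 3.24% of all gene models were. Between temporal and nasal samples 0 members were called, where 6.59% of all gene models were.

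The 4 members that did not pass the filter had few reads. The gene model named CYCS, the mobile cytochrome c, had 1 read in all libraries together. COX6A2, a form of heart and skeletal muscle in mammals, had 11 reads in 4 libraries, COX7A2 had 22 reads in 7 libraries, and the minor COX8A model had 91 reads in 13 libraries. Differences between regions were not detectable for them at these read counts, and why these models hold so few reads was not tested. The RefSeq gene table of the species, made on the assembly rAnoSag1.mat, lists 91 symbols of the same pattern. Of these, 13 (among them UQCRQ, COX6C, COX7C and NDUFS5) have no gene model of that symbol in the count table. They were not analysed under those symbols, though some of them may be among the members under older symbols.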

How the data were processed

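Poly(A)-selected, strand-marking libraries of embryonic posterior globe were sequenced by the authors, and the submitters' processing notes name HISAT2 2.2.1 and featureCounts. The deposited values are raw counts per gene model, with symbols the authors assigned by protein similarity. The strand setting of the counting and its treatment of reads with more than 1 place are not stated in the sources used here, so that models with near-identical copies can hold shared reads.

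All 15 libraries entered 1 edgeR 4.0.16 quasi-likelihood fit (R 4.3.3, robust, TMM scaling) after a filter for expression with a minimum count of 10, with a term for region. Adjusted p-values (Benjamini-Hochberg) refer to all 15910 gene models, with a threshold of 0.05. The block fit added the replicate number. Pairs of libraries with equal number correlated at 0.193 to 0.524 in their deviations from region means (15 of 15 over 0.1), against 3 of 60 pairs with different numbers. Alternatives were RLE and upper-quartile scaling, DESeq2 1.42.0, limma 3.58.1 (voom with sample weights), no and a stricter filter, only the regions compared, and leaving out each library. The blocked fit without central replicate 4, and the list counts without it, were added after seeing the data. The code was tested on simulated data.

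Named are members past the threshold in any comparison (with the 3 lowest adjusted p-values where none passed), complex IV isoforms, repeated symbols, subunits chosen by role (complex II, the catalytic subunits) and members that did not pass the filter. Further members that passed only under the block, and genes of the other lists, were chosen after their values were seen. The values of 1 member that the rule takes are not reported here, though it is in the counts and sums. The members and lists were chosen with earlier results of these data known. The gene table ends without a line end, and further models may have followed.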

Additional observations from a re-analysis of the deposited data

Results flagged for a closer look

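In groups of 5 libraries, 123 sets of values were checked for a single library far from the other 4, by the gap to its neighbour over the range, against a critical value of 0.71. About 1 in 20 sets would be marked by chance, and 6 were. COX4I2 was at 43.9 CPM in central replicate 4, with the other central libraries at 3.83 to 10.7 CPM. The NDUFA4 gene model with the higher level was at 237 CPM in central replicate 2, with the other central libraries at 135 to 154 CPM. Nasal replicate 1 was high for NDUFV1 (213 CPM, others 147 to 165 CPM), for NDUFB8 (93.6 CPM, others 77.5 to 81.0 CPM) and for SDHB (71.2 CPM, others 45.1 to 52.5 CPM). The summed level of complex IV was 879 CPM in nasal replicate 3, with the other nasal libraries at 1014 to 1058 CPM.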

How the results depend on the processing

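No called member changed direction under any alternative run. With the replicate block the count of members called was 37 in central against nasal, 24 in central against temporal and 3 in temporal against nasal samples. In the same order, the block called 27.9%, 12.7% and 13.9% of all gene models. The counts of members were 38, 26 and 7 when central replicate 4 was also left out. Limma-voom with sample weights called 38, 20 and 3. With only the compared regions in the fit, 5 were called in central against temporal samples. Leaving out each library in turn gave 6 to 14 calls in central against nasal, 5 to 10 in central against temporal and 0 to 1 in temporal against nasal samples. The 14 came without central replicate 4, the 5 without central replicate 1 or temporal replicate 4, and the 1, NDUFV1, without nasal replicate 1. The other scalings, filters and DESeq2 kept the counts within 1.5 times. Shares over all gene models are given here for the block with all libraries alone. The counts of the other runs thus stand without a background. The cause of the differences between runs was not tested. The 4 members below the filter had too few reads to compare regions.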
